A study of Mus musculus with 12 samples.

Results

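Expression of 10 genes that restrain or feed back on the transcription factor NF-kB was followed in dendritic cells (DCs) of mouse spleen, which show antigen to T cells. The genes were chosen by name, with earlier results of these data known: Nfkbia, Nfkbib, Nfkbie, Nfkbid, Nfkbiz, Bcl3, Tnfaip3, Tnip1, Tnip3 and Birc3. All 10 were found, each under 1 identifier, among the 57009 gene identifiers of the count table, and all 10 were among the 14413 genes with enough counts to be tested. RNA sequencing gave 12 libraries, 3 for each of 4 groups of DCs cultured for 3 h. All DCs came from C57BL/6 (B6) mice that carried a B16 tumour secreting Flt3 ligand, which expands DCs, and were enriched from spleen with beads that remove T, B and NK cells and macrophages. They were cultured alone (DC only), with the bacterial product lipopolysaccharide (LPS), with B6 syngeneic effector memory T cells (SynTem), or with memory T cells of BALB/c origin that are specific for the alloantigen (AlloTem). The T cells of the last 2 groups thus differed in strain as well as in specificity, so the effects of strain and of allorecognition cannot be told apart. After culture DCs were sorted on CD11b and CD11c. The sources used here give no animal ages, no LPS dose, and no statement of whether replicates were separate animals or cultures. P-values therefore reflect no more than the variation among the libraries at hand, part of which may be technical.

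NF-kB dimers are held in the cytoplasm of resting cells by the classical inhibitors IkB-alpha (Nfkbia), IkB-beta (Nfkbib) and IkB-epsilon (Nfkbie), which are phosphorylated and degraded when Toll-like receptors, CD40 or cytokine receptors are engaged. NF-kB then switches on several of its own inhibitors, so their transcripts are widely read as a sign of recent NF-kB activity. The nuclear IkB proteins IkB-NS (Nfkbid), IkB-zeta (Nfkbiz) and Bcl-3 (Bcl3) act on chromatin, where they block or assist NF-kB at subsets of target genes. The ubiquitin-editing enzyme A20 (Tnfaip3) and the ubiquitin-binding protein ABIN-1 (Tnip1) shut signalling off upstream. ABIN-3 (Tnip3) is a relative of ABIN-1, and the ubiquitin ligase cIAP2 (Birc3) works at the receptor complexes.

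Library totals ran from 13903574 to 21861156 counts, and each gene of the set had between 703 and 29150 counts in every library, so counting error was small beside the spread between libraries. Transcripts of the sorting markers were present throughout, with Itgax (CD11c) at 261 to 470.2 CPM and Itgam (CD11b) at 148 to 351 CPM. Flt3 ranged from 316 to 461 CPM (CPM are counts scaled to library size after TMM normalization). The summed level of 4 Y-linked transcripts was 131 to 219.6 CPM in number 3 of every group and in SynTem 2 (5 libraries), and 0 to 10.3 CPM in the 7 others. Batch numbers in a deposited table match the library numbers for all 12 libraries, and the table does not say what a batch was. SynTem 2 was the only number 2 library with Y-linked transcripts, so whether it belongs with the other number 2 libraries is in doubt. DC only 1 and 2 were closer to each other than any other replicates. A chi-square statistic comparing their counts, divided by its degrees of freedom, was 6.13, against 26.6 to 82.0 for the other replicate pairs. DC only 1 also lacked the high Itgam level of the other number 1 libraries (196 CPM, against 308 to 351 CPM). Whether DC only 1 and 2 are separate, rightly numbered replicates was not tested. Values within a number or with the number as a block rest on the numbering.

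In the mouse build GRCm38 (mm10) the classical inhibitors lie at chr12:55489410-55492647 (Nfkbia, ENSMUSG00000021025), chr7:28758251-28767512 (Nfkbib) and chr17:45555703-45563169 (Nfkbie). The nuclear inhibitors lie at chr7:30421732-30428746 (Nfkbid), chr16:55811375-55838899 (Nfkbiz) and chr7:19808462-19822770 (Bcl3). A20 and its partners lie at chr10:19000910-19015657 (Tnfaip3, ENSMUSG00000019850), chr11:54910785-54962917 (Tnip1) and chr6:65525313-65634040 (Tnip3), and Birc3 lies at chr9:7848699-7873186. Exons of Nfkbib share 16.4% of their bases with Ccer2 and Sirt2 on the other strand, and those of Bcl3 share 6.51% with the antisense gene Gm16175. Whether reads were counted by strand is not given in the sources used here, so reads of these neighbours may be included. The exons of the 8 other genes share no bases with exons of another annotated gene.

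Promoters are shown because NF-kB binding sites are the textbook route by which several of these genes are induced. Since the genes were chosen by name for their place in NF-kB feedback, their share of matches only describes them. Whether such sites bear on how the genes varied across libraries was not tested. RefSeq promoter windows of GRCm38, from 250 bases before to 50 after each start site, were available for 9 of the 10 genes (12 windows, Nfkbiz without one). The NF-kB consensus known as the kappaB decamer, read on both strands with overlaps counted, matched in windows of 7 of these 9 genes, against 5.14% of the 27025 genes with a window. By window the match was found in 7 of 12, against 4.51% of 32851 windows. The looser pattern GGGNNNNNCC, which contains the decamer and was also read on both strands, was found in 11 of the 12 windows and in 50.8% of all windows. No decamer match was found in the windows of Birc3 and Nfkbib, and that of Bcl3 lay in an annotated exon just after the start site. The stretches around the other matches run 5′ to 3′ on the gene's strand, end before the start site, hold no annotated exon, and have the matched bases in capitals.
Nfkbia: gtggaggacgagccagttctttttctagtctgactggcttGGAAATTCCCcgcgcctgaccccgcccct
Nfkbie: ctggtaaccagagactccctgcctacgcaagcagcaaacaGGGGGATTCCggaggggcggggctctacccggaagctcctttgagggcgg
Nfkbid: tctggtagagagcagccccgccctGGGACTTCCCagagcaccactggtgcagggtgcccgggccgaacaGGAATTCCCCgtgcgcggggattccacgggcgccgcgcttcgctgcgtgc
Tnfaip3, distal: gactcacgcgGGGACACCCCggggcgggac
Tnfaip3, proximal: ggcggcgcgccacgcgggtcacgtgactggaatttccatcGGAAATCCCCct
Tnip1: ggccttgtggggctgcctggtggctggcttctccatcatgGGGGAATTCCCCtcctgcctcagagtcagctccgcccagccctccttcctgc
Tnip3: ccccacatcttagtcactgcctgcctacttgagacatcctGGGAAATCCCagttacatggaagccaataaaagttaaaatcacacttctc

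The Nfkbia stretch is chr12:55492648-55492716 on the minus strand, with its match starting 29 bases before the start site. That of Nfkbie is chr17:45555554-45555643 on the plus strand, with the match starting 106 bases upstream. Nfkbid has 2 matches, 226 and 181 bases before its second RefSeq start, within chr7:30422156-30422274 on the plus strand, which is intronic in the longer gene model. For Tnfaip3 both stretches, chr10:19015516-19015545 and chr10:19015411-19015462 on the minus strand, lie in an intron of the longest gene model and hold matches 125 and 12 bases before a RefSeq start. Tnip1 carries 3 overlapping matches that form a single run of 12 capitals, 58 bases upstream in chr11:54962947-54963038 on the minus strand. In Tnip3 the match starts 54 bases upstream in chr6:65590304-65590393 on the plus strand, which is intronic in the longest gene model. A match describes the letters only, since binding was not measured.

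**Figure D1:**
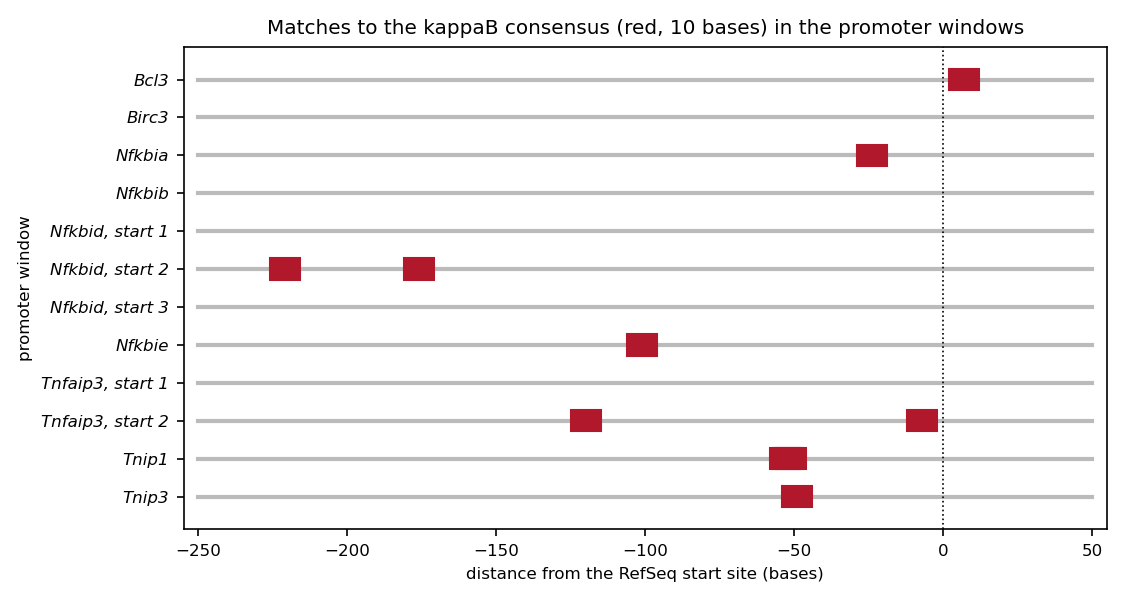
Positions of kappaB decamer matches (red boxes) in the promoter windows of 9 genes, with distance from the RefSeq start site in bases on the x axis and 1 grey line per window. Matches were found in 7 of the 12 windows, most of them before the start site, with none for Birc3 and Nfkbib.

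Mean levels of all 10 genes were lowest in SynTem, and the highest mean was in LPS for 7 genes and in AlloTem for 3 (Bcl3, Tnfaip3 and Tnip3). SynTem also held more of the libraries with Y-linked transcripts than any other group. The part of this imbalance in its low means was not tested. DC only came next above SynTem for 8 genes, while for Nfkbie and Tnip1 AlloTem did. No gene of the set passed in any of the 6 comparisons between groups (edgeR's quasi-likelihood test, at a p under 0.05 after Benjamini-Hochberg adjustment over all 14413 genes). Expressed per kilobase of annotated exon, so that genes can be compared, Nfkbia had the highest level in every group, from 328 ± 176 CPM per kb in SynTem to 748 ± 111 CPM per kb in LPS (SD, n = 3). In AlloTem the next highest was Tnfaip3, at 161 ± 55.5 CPM per kb. The lowest in every group was Tnip3, from 11.5 to 27.4 CPM per kb. Annotated exons are a union over transcripts, so a gene with long rare exons is understated on this scale.

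**Figure D2:**
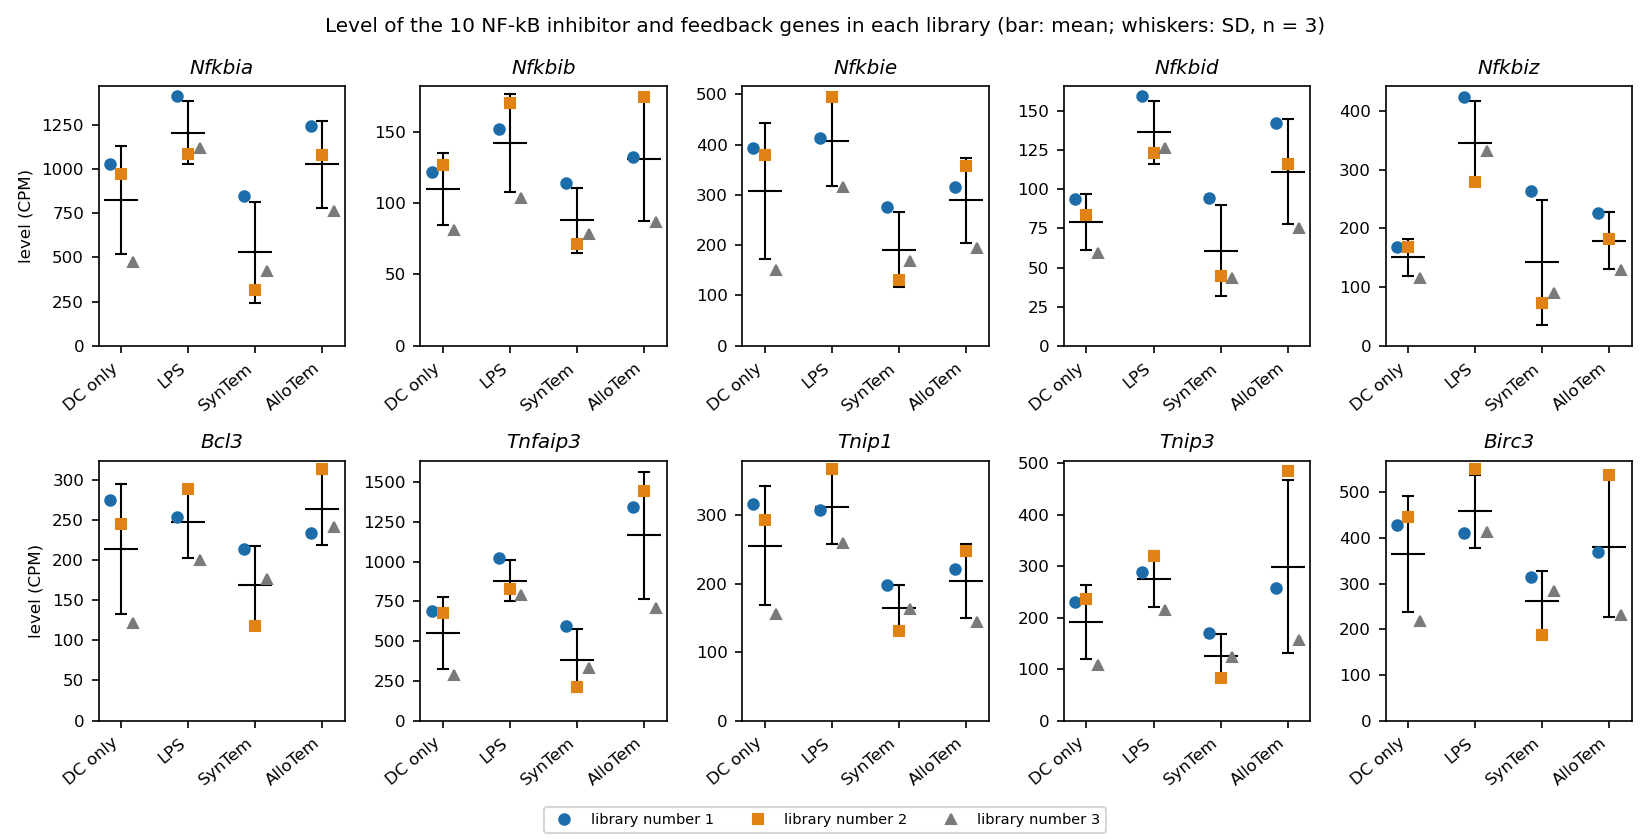
Level of each gene in each library (CPM, y axis from 0) by group, with the mean as a bar and the SD over 3 libraries as whiskers; marker shape and colour give the library number. SynTem has the lowest mean in all 10 panels, and DC only 3 is the lowest DC only library in each.

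Among the classical inhibitors, Nfkbia stood at 1027, 969 and 476 CPM in DC only libraries 1 to 3 and at 1410.5, 1085 and 1119 CPM in LPS. Its levels were 848, 313 and 422 CPM in SynTem and 1244, 1078 and 760.3 CPM in AlloTem. Every LPS library was above every DC only and every SynTem library, while AlloTem overlapped the 3 other groups. The mean was 1.46-fold higher in LPS than in DC only (1205 ± 179 against 824 ± 303 CPM, SD, n = 3 each; log2 0.55 ± 0.38 SE, edgeR adjusted p = 0.999). AlloTem exceeded SynTem 1.95-fold (log2 0.96 ± 0.38, edgeR adjusted p = 0.454). Nfkbie, the slower-acting relative, was highest in LPS at 408 ± 89.5 CPM and lowest in SynTem at 191 ± 74.9 CPM, with DC only (308 ± 136 CPM) and AlloTem (289 ± 84.2 CPM) between. Nfkbib, which is generally the least inducible of these inhibitors, varied least among them, from 71.4 CPM in SynTem 2 to 174 CPM in AlloTem 2. Its difference between LPS and SynTem was 1.62-fold, against 2.28-fold for Nfkbia and 2.13-fold for Nfkbie (edgeR adjusted p = 0.594, 0.412 and 0.491).

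Nfkbiz, whose product IkB-zeta assists NF-kB at secondary response genes such as Il6, had the largest difference of the set between LPS and DC only. It stood at 168, 169 and 115 CPM in DC only and at 423, 279 and 331 CPM in LPS. In the cultures with T cells it was 264, 72.6 and 89.3 CPM in SynTem and 227, 182 and 129 CPM in AlloTem. The 3 LPS libraries were above all 9 others, and SynTem 1 was apart from SynTem 2 and 3. The mean was 2.29-fold higher in LPS than in DC only (log2 1.19 ± 0.44, edgeR adjusted p = 0.999) and 1.92-fold higher in LPS than in AlloTem (log2 -0.94 ± 0.44 for AlloTem minus LPS, edgeR adjusted p = 0.80). Nfkbid, whose product IkB-NS binds p50 on cytokine promoters, was 94.1, 83.6 and 59.1 CPM in DC only and 159.7, 123 and 126 CPM in LPS. Levels in SynTem were 94.2, 44.5 and 43.2 CPM and in AlloTem 142, 116 and 75.4 CPM. LPS was above DC only and above SynTem in every library, as it was for Nfkbia, and the mean was 2.25-fold lower in SynTem than in LPS (log2 -1.17 ± 0.33, edgeR adjusted p = 0.322). With the library number as a block this difference passed (log2 -1.25 ± 0.18, edgeR adjusted p = 0.0362), and so it did by DESeq2 (adjusted p = 0.0340). Over all its alternatives the adjusted p ran from 0.0340 to 0.909. Bcl3, whose product partners p50 and p52 dimers, stood at 263 ± 44.2 CPM in AlloTem, 247 ± 44.5 CPM in LPS, 214 ± 81.0 CPM in DC only and 169 ± 48.4 CPM in SynTem. Its AlloTem libraries were all above its SynTem libraries (log2 0.64 ± 0.30, edgeR adjusted p = 0.535).

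Tnfaip3, which encodes A20, was the gene of the set with the largest difference between AlloTem and SynTem. It stood at 1343, 1446 and 706 CPM in AlloTem libraries 1 to 3 and at 595, 209 and 330.5 CPM in SynTem. In DC only it was 688, 676 and 287 CPM and in LPS 1026, 827 and 788 CPM. AlloTem libraries were all above SynTem and all above DC only, but AlloTem 3 was below the 3 LPS libraries. The mean was 3.08-fold higher in AlloTem than in SynTem (log2 1.62 ± 0.44, edgeR adjusted p = 0.200) and 2.12-fold higher than in DC only (log2 1.08 ± 0.43, edgeR adjusted p = 0.319). Against SynTem it passed by DESeq2 (adjusted p = 0.00687), with a range of adjusted p over its alternatives from 0.00687 to 0.685. Against DC only it passed when the 5 libraries with Y-linked transcripts were left out (log2 1.03, edgeR adjusted p = 0.0167, 2 libraries a group, where 2.55% of all genes passed, range over its alternatives 0.0167 to 0.640). In that fit DC only was left with libraries 1 and 2, the closely alike pair, so its variation may be understated.

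Tnip3, the most inducible of the A20-binding partners, was 257, 485 and 156 CPM in AlloTem and 169.7, 82.7 and 123 CPM in SynTem. It was 230.2, 237 and 108 CPM in DC only and 289, 320.5 and 215 CPM in LPS. AlloTem 2 was the highest of the 12 libraries, and AlloTem 3 was below SynTem 1, so these groups overlapped (log2 1.26 ± 0.43, edgeR adjusted p = 0.369). Tnip1, an adaptor that brings A20 to ubiquitinated targets, had a lower mean in AlloTem than in DC only, unlike Tnfaip3. Its levels were 221, 247 and 144 CPM in AlloTem and 317, 292 and 156 CPM in DC only. They were 308, 368 and 259.7 CPM in LPS and 198, 131 and 163 CPM in SynTem. For Tnip1, AlloTem and SynTem libraries were all below the LPS libraries, and the log2 difference between AlloTem and DC only was -0.32 ± 0.28 (edgeR adjusted p = 0.741). Birc3, which encodes the ligase cIAP2, was 459 ± 80.0 CPM in LPS, 380.4 ± 154 CPM in AlloTem, 364 ± 127 CPM in DC only and 262 ± 66.8 CPM in SynTem. AlloTem and DC only thus had Birc3 means closer to each other (log2 0.06 ± 0.34, edgeR adjusted p = 0.970) than the spread between libraries of either group.

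The comparison of SynTem with LPS held the widest separation. All 10 genes were lower in SynTem, with a median log2 difference of -1.11 (range -1.28 to -0.55) against 0.00495 for all genes tested, and 0 of 10 passed, where 0.0486% of all genes did (edgeR quasi-likelihood test, smallest adjusted p in the set 0.322; DESeq2 called 1, where it called 1.37% of all genes, the replicate block 1, where it called 0.194%, and limma voom 0). At an unadjusted p under 0.05, 9 of 10 were lower, all but Bcl3, where 3.72% of all genes were. In 8 of 10 the groups did not overlap, with Nfkbib and Bcl3 as the exceptions, against 7.14% of all genes. Within each of the 3 library numbers all 10 genes were lower in SynTem, as 17.8% of all genes were, with medians of -0.66, -1.68 and -0.86. The set was chosen with earlier results of these data known, and its genes varied together. Shares of all genes, here and in the other comparisons, therefore describe the set and do not test it. Without SynTem 1, Nfkbiz passed (log2 -2.09, edgeR adjusted p = 0.0202, where 0.249% of all genes did). When the 5 libraries with Y-linked transcripts were left out, which leaves SynTem with a single library assumed to vary like the other groups, all 10 remained lower, with a median of -0.61.

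The comparison of AlloTem with SynTem set the cultures with memory T cells side by side. All 10 genes were higher in AlloTem by the fit, with a median log2 difference of 0.62 (range 0.31 to 1.62, all genes -0.01), and 0 of 10 passed, where 0.167% of all genes did (edgeR, smallest adjusted p in the set 0.200; DESeq2 called 1, where it called 2.21% of all genes, and limma voom 0). At an unadjusted p under 0.05, 4 were higher, Nfkbia, Nfkbid, Tnfaip3 and Tnip3, where 5.68% of all genes were. For Tnfaip3 and Bcl3 the groups did not overlap, which held for 7.09% of all genes in this direction. Tnfaip3 had log2 ratios of 1.17, 2.79 and 1.09 within numbers 1, 2 and 3, all above 1. Medians over the set were 0.22, 1.43 and 0.39 within these numbers, so number 2, which rests on SynTem 2, was the largest. Nfkbiz was lower in AlloTem within number 1, and Tnip1 and Birc3 within number 3. Without SynTem 1 the median over the set was 1.05 and Tnfaip3 was at log2 2.12 (edgeR adjusted p = 0.153). Without DC only 2 and SynTem 2 the median was 0.44 and Tnfaip3 was at log2 1.33 (edgeR adjusted p = 0.685). In that fit Nfkbiz differed by 0.02, and without the 5 libraries with Y-linked transcripts its sign turned, at -0.37 (SynTem then 1 library).

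LPS and AlloTem were each also set against DC only, and these comparisons share the DC only libraries. With LPS all 10 genes were higher, by a median log2 difference of 0.46 (range 0.21 to 1.19, all genes 0.00); none of the 10 passed, nor did any gene of the 14413 (0.0% called, edgeR; 2 of 10 at an unadjusted p under 0.05, DESeq2 and limma voom 0). Those 2 were Nfkbid and Nfkbiz, where 2.25% of all genes were higher at that p. In Nfkbia, Nfkbid, Nfkbiz and Tnfaip3 every LPS library exceeded every DC only library, against 5.36% of all genes. Medians within numbers 1, 2 and 3 were 0.32, 0.36 and 1.02, with the largest ratio in number 3, where DC only 3 was low. Without DC only 3 the median over the set was 0.21, and Bcl3 was lower in LPS. With AlloTem 8 genes were higher than in DC only and Nfkbie and Tnip1 were lower, with a median of 0.28 (range -0.32 to 1.08, all genes 0.000971). None of these 10 differences passed, where 1.76% of all genes did (edgeR, smallest adjusted p in the set 0.319; 1 at an unadjusted p under 0.05, against 7.55% of all genes in that direction; DESeq2 and limma voom 0). That gene, Tnfaip3, was also the only one whose AlloTem and DC only libraries did not overlap, against 9.35% of all genes in this direction, and its log2 ratios within numbers were 0.96, 1.10 and 1.30. The median over the set moved to 0.06 without DC only 3, to 0.13 without AlloTem 2, to 0.42 without DC only 1 and to 0.47 without AlloTem 3.

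SynTem against DC only gave lower values for all 10 genes in the fit, with a median of -0.51 (range -0.69 to -0.09, all genes 0.00274), and 0 of 10 passed, where 0.0902% of all genes did (edgeR; Tnip1 lower at an unadjusted p under 0.05, against 3.41% of all genes; DESeq2 and limma voom 0). In none of the 10 were the groups apart, against 6.83% of all genes in this direction, and the medians within numbers 1, 2 and 3 were -0.32, -1.23 and 0.11. Within number 3 SynTem was higher for 6 genes and lower for Nfkbia, Nfkbib, Nfkbid and Nfkbiz. Within number 1 it was lower for 8 genes and higher for Nfkbiz and, barely, Nfkbid, and within number 2 it was lower for all 10. The median was -0.87 without SynTem 1 and -0.80 without DC only 3, but -0.27 without SynTem 2 and -0.14 without DC only 2 and SynTem 2. Without the 5 libraries with Y-linked transcripts it was also -0.27 (SynTem then 1 library). AlloTem against LPS compared the groups that between them held the highest mean of every gene. Of the set 3 genes were higher in AlloTem (Bcl3, Tnfaip3 and Tnip3) and 7 lower, with a median of -0.25 (range -0.94 to 0.40, all genes -0.00468). This median was -0.03 without AlloTem 3, -0.13 without LPS 1 and -0.39 without AlloTem 2. None passed, where 0.451% of all genes did (edgeR; 0 at an unadjusted p under 0.05, against 4.27% higher and 2.23% lower of all genes; DESeq2 and limma voom 0). Nfkbiz and Tnip1 were lower in every AlloTem library than in any LPS library, which held for 4.54% of all genes. For Tnfaip3 the log2 difference was 0.40 ± 0.42 (edgeR adjusted p = 1.00), within the spread between libraries.

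**Figure D3:**
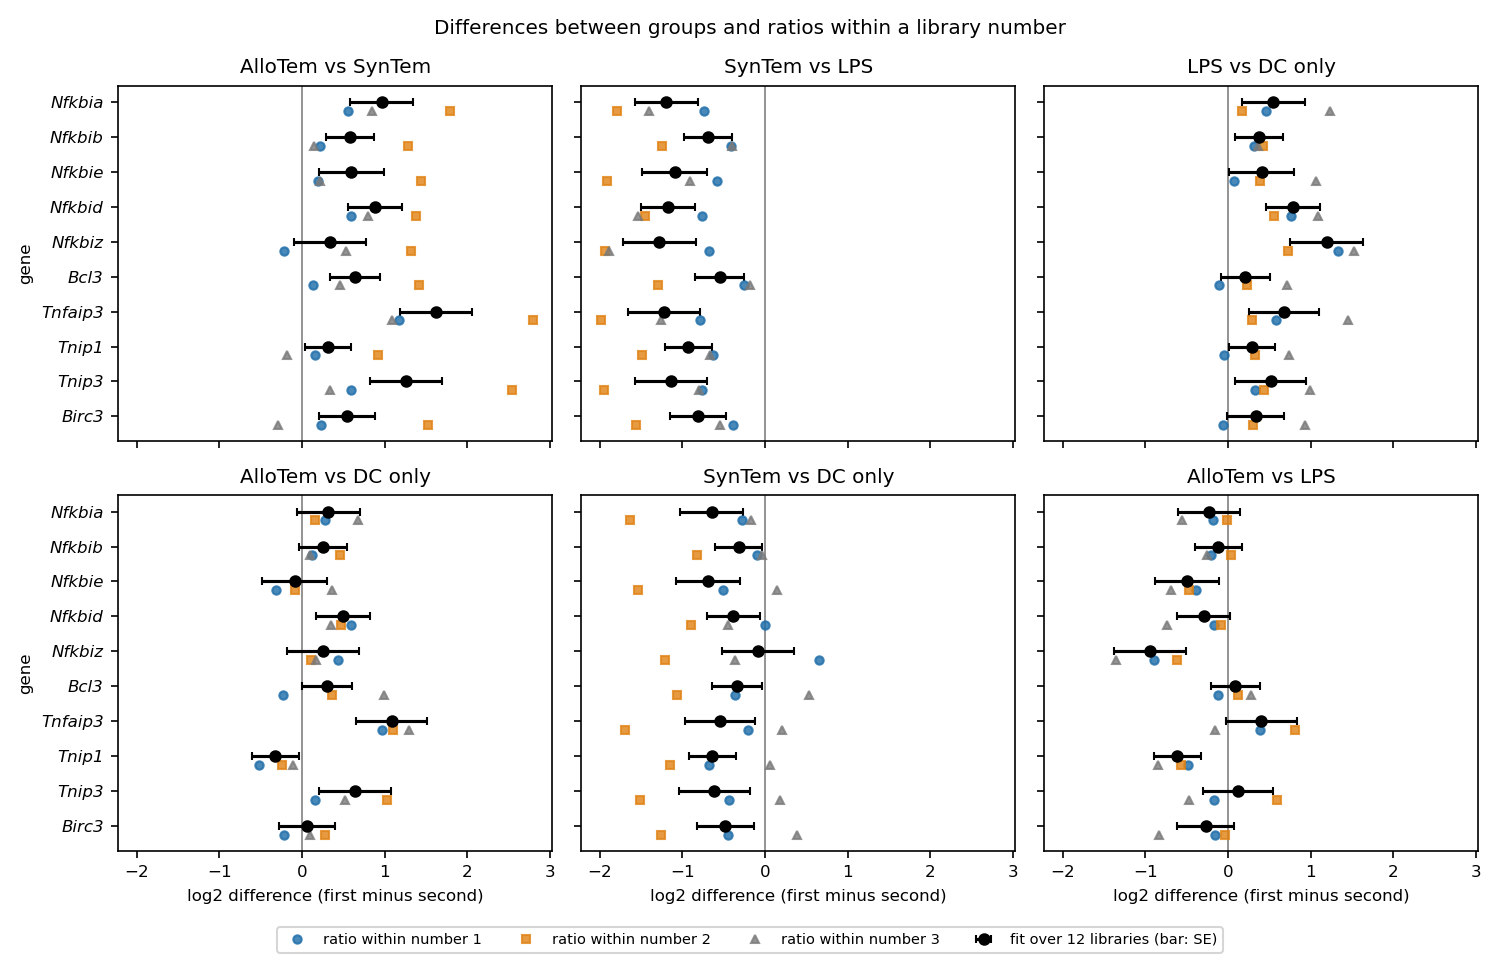
Log2 difference between groups (x axis, first group minus second) for each gene in the 6 comparisons: black points with SE bars are from the fit over 12 libraries, and coloured markers are ratios within a library number. All 10 genes lie below 0 for SynTem minus LPS in the fit and within each number, while within-number ratios fall on both sides of 0 for SynTem minus DC only.

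The 10 genes also varied together between libraries of a single group. In SynTem 2, 9 of them had their lowest level of the 12 libraries, with a median of -1.04 log2 units from each gene's own mean over all libraries, against 0.00123 for all genes tested. DC only 3 and SynTem 3 followed, with medians of -0.73 and -0.70 and 10 of 10 genes below their own mean in each. In SynTem 1 the median was -0.0044, close to the genes' own means. LPS 2, LPS 1 and AlloTem 2 were highest, at 0.61, 0.56 and 0.47. Within DC only, number 3 was the lowest library for 10 of 10 genes, and the highest library exceeded the lowest 2.1-fold at the median (1.48- to 2.6-fold). Number 3 was lowest for 9 genes in AlloTem and for 6 in LPS, whereas in SynTem number 2 was lowest for 9 and number 1 highest for 10. The spread between DC only libraries was of the size of the differences between groups: Tnfaip3 ranged 2.4-fold among DC only libraries.

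**Figure D4:**
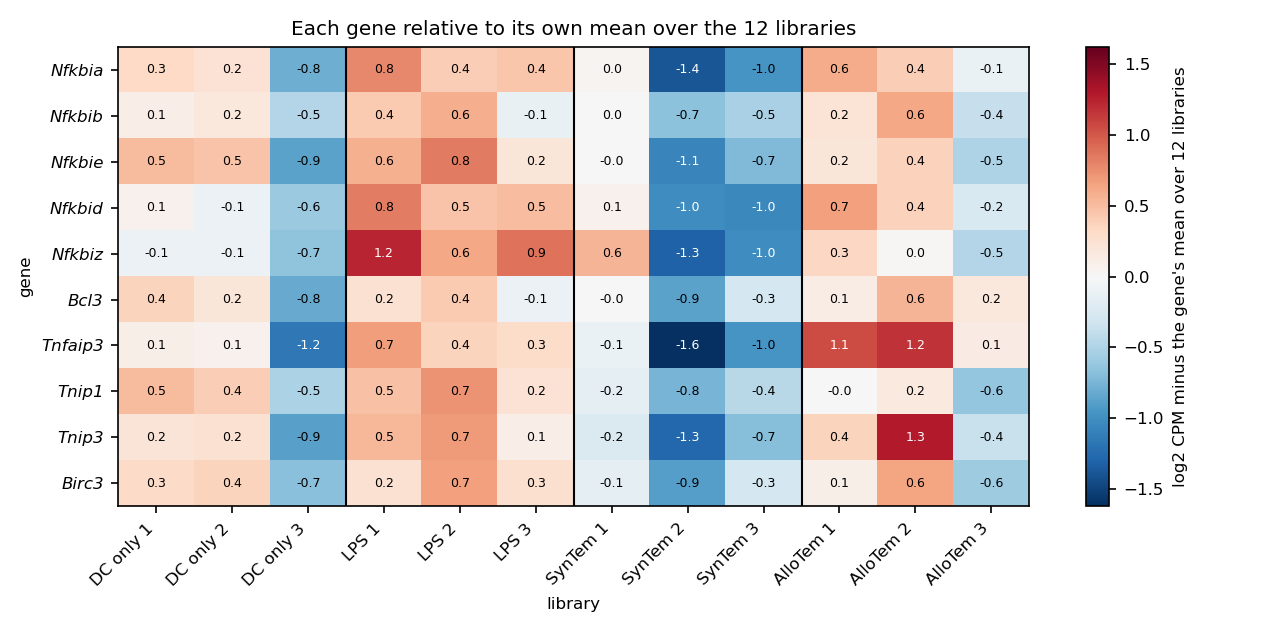
Log2 CPM of each gene (rows) in each library (columns) minus that gene's mean over the 12 libraries, with red above and blue below the mean. SynTem 2, SynTem 3 and DC only 3 are below the mean for 10 of 10 genes, and LPS 1, LPS 2 and AlloTem 2 above it for 10 of 10.

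Transcripts of other cells and of the sex chromosomes also differed between libraries, in some of them along with these levels. The libraries with Y-linked transcripts were the 3 just named as low and AlloTem 3, in which 8 of 10 genes were below their mean, and also LPS 3, in which 8 of 10 were above it. Against the mean of its own group, however, LPS 3 was lower for all 10 genes (by -0.035 to -0.42 log2 units). So were DC only 3, SynTem 2 and AlloTem 3, while genes in SynTem 3 lay on both sides (-0.42 to 0.15). The cause of this pattern was not tested. Xist, which is transcribed from the inactive X chromosome, was 138 to 146 CPM in number 3 of DC only, LPS and AlloTem, 312 CPM in SynTem 2 and 455 CPM in SynTem 3, against 610.0 to 1188 CPM in the 7 others. The summed level of 23 T cell markers was 339.9, 790.3 and 635 CPM in SynTem 1 to 3 and 349, 223 and 185 CPM in AlloTem. In DC only these markers summed to between 85.1 and 129 CPM, and in LPS to between 90.4 and 211 CPM. SynTem 2 and 3 thus combined the highest T cell marker levels with low levels of the 10 genes. DC only 3, also low in these genes, had the lowest T cell marker level of the 12 libraries (85.1 CPM). All 23 markers were detected in each SynTem and AlloTem library, while Cd3e was at 0 in DC only 1, Cd3g in DC only 2, Bcl11b in DC only 3 and LPS 3, and Cd8b1 in DC only 3. Cd3e, which encodes a CD3 chain of the T cell receptor complex, was 10.7, 47.9 and 30.4 CPM in SynTem and 6.55, 2.93 and 3.92 CPM in AlloTem. The part of these transcripts in the levels of the 10 genes was not tested. In such bulk libraries fewer cells that express a gene and less RNA per cell cannot be told apart. Summed neutrophil markers (10 genes) stood at 984 CPM in SynTem 3, against 49.7 to 309.9 CPM in the other libraries. The 8 NK cell markers were highest in number 1 of LPS, AlloTem and SynTem (821, 770.4 and 648 CPM), against 112 to 418 CPM elsewhere. Plasmacytoid DC markers (8 genes) ranged from 468 to 522 CPM in SynTem and from 541 to 1030.3 CPM in the other groups. B cell markers (11 genes) summed to 227 to 385 CPM over the 12 libraries. Macrophage markers (10 genes) were highest in number 1 of SynTem, AlloTem and LPS (195, 178 and 130 CPM). Elsewhere they summed to 36.7 to 82.1 CPM, with 54.0 CPM in DC only 1. Their roles in the results were not tested either.

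**Figure D5:**
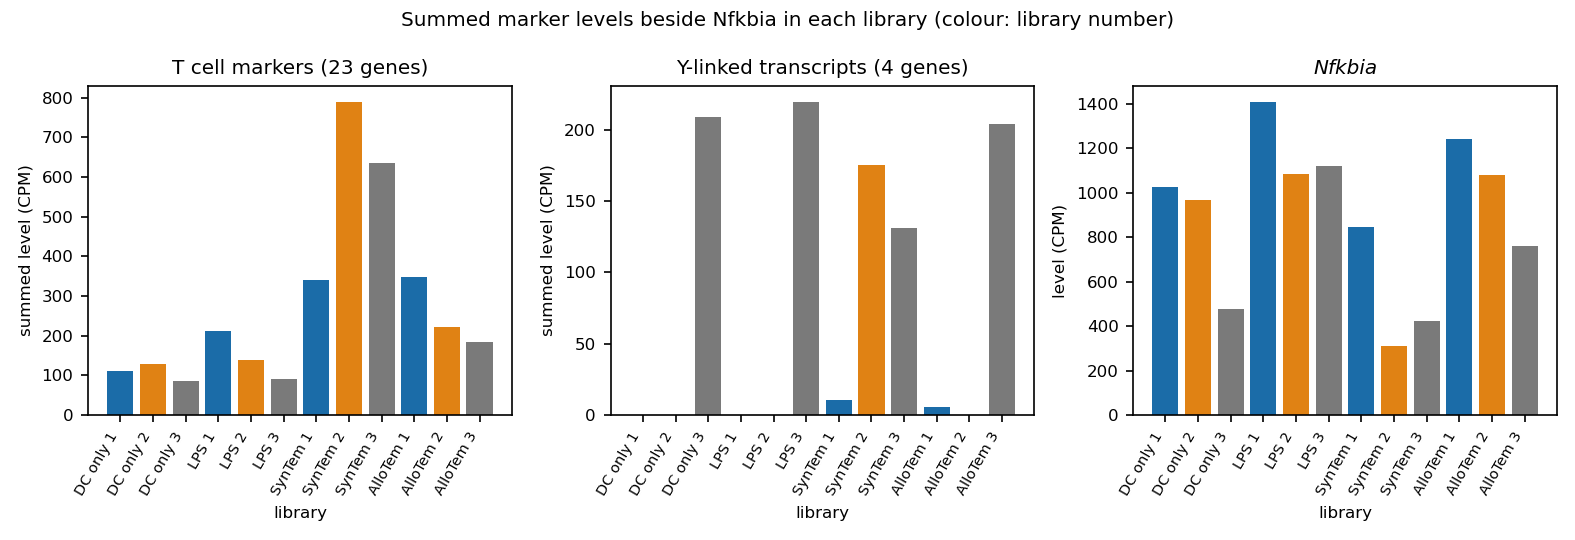
Summed level of T cell markers and of Y-linked transcripts and the level of Nfkbia (CPM, bars from 0) in each library, coloured by library number. SynTem 2 and SynTem 3 have the highest T cell marker levels, and together with DC only 3 the lowest Nfkbia levels. DC only 3 has the lowest T cell marker level.

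Other genes of the pathway were read from a list of 43 (subunits, kinases, adaptors, ubiquitin ligases and further regulators), all of which were tested. None passed in any of the 6 comparisons (edgeR). At an unadjusted p under 0.05, AlloTem exceeded SynTem for 7 of them and was below it for 2, against 5.68% and 3.91% of all genes. The same numbers held for AlloTem against DC only, against 7.55% and 5.19% of all genes. LPS exceeded DC only for 2 (2.25% of all genes) and was below it for 0 (1.44%). SynTem exceeded DC only for 3 (4.83%) and was below it for 2 (3.41%). AlloTem exceeded LPS for 4 (4.27%) and was below it for 0 (2.23%). SynTem exceeded LPS for 2 (4.25%) and was below it for 1 (3.72%). For AlloTem against SynTem 29 were higher and 14 lower, with a median log2 difference of 0.10, against 0.62 for the 10 inhibitor and feedback genes. All 5 NF-kB subunits were higher in AlloTem than in SynTem (log2 0.40 to 1.03) and lower in SynTem than in LPS (log2 -0.78 to -0.27). Rel, the subunit c-Rel, was 887, 1111 and 557 CPM in AlloTem, while SynTem had 610.1, 340.4 and 305 CPM (log2 1.03 ± 0.29, edgeR adjusted p = 0.237, DESeq2 adjusted p = 0.0356). Traf6, an adaptor ligase of Toll-like receptor and CD40 signalling, was 186, 223 and 133 CPM and 126, 111 and 113 CPM in the same groups (log2 0.63 ± 0.16, edgeR adjusted p = 0.161, DESeq2 adjusted p = 0.0289).

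Against DC only, the protease Malt1, which cleaves A20 among other targets, was 533, 1004 and 306 CPM in AlloTem and 225, 244 and 171 CPM in DC only (log2 1.53 ± 0.36, edgeR adjusted p = 0.0735, DESeq2 adjusted p = 0.000824). The kinase Ripk1, a substrate of A20, was 143, 145 and 124 CPM and 101, 102 and 94.9 CPM in these groups (log2 0.47 ± 0.12, edgeR adjusted p = 0.0823, 0.0486 with the library number as a block). Ripk1 also passed here by DESeq2 (adjusted p = 0.0104) and with upper quartile scaling (edgeR adjusted p = 0.0446). Malt1 was highest in AlloTem 2, without which its log2 difference was 0.98 (edgeR adjusted p = 0.186), and it passed without AlloTem 3 (log2 1.86, edgeR adjusted p = 0.0120). Zc3h12a, the RNase Regnase-1 that degrades cytokine mRNAs, had the smallest p of the list for LPS against DC only (log2 0.74 ± 0.22, edgeR adjusted p = 0.999). It was also lower in SynTem than in LPS (log2 -0.78 ± 0.22, edgeR adjusted p = 0.335, 0.0274 with the block). Ikbke, a kinase related to the IkB kinases, was higher in SynTem than in DC only, unlike the 10 genes, at 21.1, 31.7 and 58.0 CPM against 16.1, 15.9 and 8.03 CPM in DC only (log2 1.47 ± 0.36, edgeR adjusted p = 0.213, DESeq2 adjusted p = 0.00635). That log2 difference was 0.99 without SynTem 3 (edgeR adjusted p = 0.568) and 1.75 without SynTem 1 (edgeR adjusted p = 0.0684). Without the 5 libraries with Y-linked transcripts it was 0.39 (SynTem then 1 library). The difference of Ikbke between LPS and DC only was 1.05 ± 0.36 (edgeR adjusted p = 0.999). In the comparisons not yet given, Ripk1 was 0.36 ± 0.12 log2 units higher in SynTem than in DC only, 0.36 ± 0.12 higher in SynTem than in LPS and 0.47 ± 0.12 higher in AlloTem than in LPS (edgeR adjusted p = 0.345, 0.406 and 0.150). The last of these passed by DESeq2 (adjusted p = 0.0220). Traf6 was 0.56 ± 0.16 log2 units higher in AlloTem than in LPS (edgeR adjusted p = 0.247). Without AlloTem 3 this difference passed (log2 0.74, edgeR adjusted p = 0.0331), as did that of Traf6 between AlloTem and SynTem (log2 0.82, edgeR adjusted p = 0.0237).

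Likeness of pattern was described by Pearson's r of log2 CPM over the 12 libraries, among 9621 named genes with a mean of at least 5 CPM, as a description only, since libraries of a group or number share their source. Outside the set, the 5 genes most like Nfkbia were Mcl1 (0.96), Itpkc (0.96), Pde4b (0.96), Dusp2 (0.96) and Bcl10 (0.94). Within the set, Nfkbid reached 0.96 with Nfkbia. Mcl1 encodes a survival factor of the Bcl-2 family, Pde4b a cyclic AMP phosphodiesterase, Dusp2 a MAP kinase phosphatase and Bcl10 an adaptor of Malt1. Genes outside the set most like Tnfaip3 were Maff (0.98), Junb (0.97), Il1b (0.96), Dusp8 (0.96) and Csrnp1 (0.95). Among them are the cytokine interleukin-1 beta and the AP-1 subunit JunB. Between members of the set r ran from 0.61 (Nfkbiz and Bcl3) to 0.96, with a median of 0.85 over 45 pairs.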

How the data were processed

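RNA was sequenced from 12 libraries of cultured mouse dendritic cells in 4 groups of 3. The authors deposited raw counts per Ensembl gene, with no normalization per the file headers, and a table with a batch number for each library. Per the submitters' processing notes the build was mm10. For the aligner, the counter, the annotation release and strandedness, nothing is stated in the sources used here. Positions are from GENCODE M21 (GRCm38), and promoter windows from RefSeq. Library totals, 13903574 to 21861156 counts, set the counting precision.

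Counts were scaled by TMM, filtered with filterByExpr (minimum count 10, minimum total 15) and tested with edgeR 4.0.16 (R 4.3.3) by the quasi-likelihood test over all 12 libraries, with Benjamini-Hochberg adjustment over all 14413 genes. The code was tested on simulated data. Ratios within a library number used a pseudocount of 0.5 CPM. Alternatives were DESeq2 1.42.0, limma 3.58.1 voom, RLE and upper quartile scaling, other filters, fits of 2 groups, a replicate block and leaving out each library. Added after seeing the data were leaving out DC only 2 with SynTem 2, and leaving out the 5 libraries with Y-linked transcripts.

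Named genes were the 10 of the set, the 2 genes with the smallest p per comparison from a list of 43 other pathway genes, and the 5 genes outside the set most like Nfkbia and Tnfaip3. The members and lists were chosen with earlier results of these data known. The deposited batch number equals the replicate number, so the numbers may pair libraries. Deviations from group means had a median correlation of 0.25 over 18 pairs with the same number (range -0.25 to 0.63, 12 above 0.1), against -0.20 over 36 other pairs. Such deviations cancel within a group, so the value for the other pairs is not independent of the first.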

Additional observations from a re-analysis of the deposited data

How the results depend on the processing

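The number of genes of the set that passed was 0 in 91 of 96 combinations of comparison and alternative and 1 in the other 5. That 1 was Tnfaip3 for AlloTem against SynTem by DESeq2 and for AlloTem against DC only without the 5 libraries with Y-linked transcripts, and, for SynTem against LPS, Nfkbid by DESeq2 and with the replicate block and Nfkbiz without SynTem 1 (0 to 1 over left-out libraries). Over all genes, the block called 0.541% for AlloTem against SynTem, 2.91% for AlloTem against DC only, 0.146% for SynTem against DC only, 0.944% for AlloTem against LPS and 0.194% for SynTem against LPS, and DESeq2 called 2.21%, 4.70%, 1.76%, 1.98% and 1.37%. For LPS against DC only they called 0.0% and 0.0694%. Beside Nfkbid, the block changed the call of Zc3h12a (SynTem against LPS) and, for AlloTem against DC only, of Ripk1 (edgeR adjusted p = 0.0486), Rel (0.0848 to 0.0242), Traf6 (0.0974 to 0.0397) and Zc3h12a (0.356 to 0.0377). Among the 10 genes of the set and the 6 pathway genes named it changed no other call.

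Of 960 single-gene values of the set, 22 changed sign, and the cause was not tested. For SynTem against LPS none did, and for AlloTem against SynTem only Nfkbiz did (-0.37 without the 5 libraries with Y-linked transcripts). For SynTem against DC only, Nfkbiz moved to 0.64 and Nfkbid to 0.073 in that fit. Without DC only 2 and SynTem 2 together, Nfkbiz was 0.32 (SynTem against DC only) and Nfkbie 0.088 (AlloTem against DC only). By voom, Tnip3 was -0.014 for AlloTem against LPS. Left-out single libraries turned the sign of the others, with these log2 ranges over left-out libraries: Nfkbie -0.42 to 0.14, Birc3 -0.28 to 0.33 and Nfkbib -0.0034 to 0.49 for AlloTem against DC only, Bcl3 -0.072 to 0.43 for LPS against DC only, Nfkbiz -0.89 to 0.23 for SynTem against DC only, and Nfkbib -0.37 to 0.11, Bcl3 -0.056 to 0.21 and Tnip3 -0.41 to 0.44 for AlloTem against LPS. The lowest count of a gene of the set in any library was 703, and 3 libraries a group limit what the tests can show.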
